A study of Sus scrofa domesticus with 12 samples.

Results

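The voltage-gated and potassium ion channel genes were taken by name, as every gene whose symbol begins with KCN (potassium channels), with CACNA, CACNB, CACNG or CACNA2D (calcium channel subunits), or with SCN or CLCN followed by a digit (sodium and chloride channels). Of 11506 genes in the deposited table, 62 carried such a name. A gene was kept as a member when every library of some condition held 0.5 or more TPM (transcript abundance per length, scaled to the same total in each library), and 36 genes did. The rule did not use any difference between conditions. The other 26 genes lay below this level, and 6 of them were listed at 0 in every library.

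Ion channels of this kind are pores in the cell membrane, opened by voltage or, for several potassium channels, by calcium, by loss of ATP or by no signal at all. In a skeletal muscle fiber, sodium channels carry the action potential, potassium and chloride channels hold the resting potential and end each spike, and the L-type calcium channel complex in the transverse tubule couples the spike to calcium release and contraction. Many of the same families also set the membrane potential of vascular smooth muscle, nerve, fibroblasts and leukocytes, so a piece of whole muscle holds channel mRNA from all of these cells.

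Volumetric muscle loss (VML) is the surgical or traumatic removal of a volume of muscle that the tissue does not rebuild. RNA was sequenced 12 weeks after surgery from the peroneus tertius (PT) muscle, the main dorsiflexor of the lower limb, of female Yorkshire Cross pigs described as young adults. In the 10 VML-injured limbs a block of PT muscle had been cut out. It was left without repair in 2 limbs (non-repaired, pigs 017 and 023), filled with a gel of thiol-modified hyaluronan that served as the negative control material in 2 limbs (Hya-repaired, pigs 016 and 017), or filled with extracellular matrix in 6 limbs (ECM-repaired, pigs 013, 014, 018, 021, 022 and 024). The remaining 2 limbs were sham-operated (pigs 025 and 026): the muscle was exposed and no tissue was removed. Operations were made on both hindlimbs, and pig 017 supplied limbs to the non-repaired and the Hya-repaired group, so the 12 libraries came from 11 pigs. The sample labels call all ECM limbs small intestinal submucosa, while the study also used urinary bladder matrix and names both among its sequenced limbs, and the materials were therefore not separated.

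The values are TPM without read counts, so the depth of each library is unknown and the number of limbs, above all the 2 sham limbs, limits every comparison. Whole tissue was sequenced, and fewer cells of a type cannot be told apart from less RNA per cell. The mean log2(TPM + 0.5) of 8 muscle fiber genes was 11.42 and 11.57 in the sham limbs and ranged from 7.23 to 10.47 in the injured limbs. Summed TPM of 7 fibroblast markers was 1122 to 1571 in sham and 37496 to 97002 in injured limbs, and that of 9 macrophage markers was 36.5 to 60.4 in sham and 694 to 1866 in injured limbs. The part of these shifts in the channel results was not tested beyond the comparison with muscle fiber genes given here. Across all 9321 genes tested, the median log2 fold change of VML-injured against sham was 0.71.

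Channel mRNA split by direction after VML. Of the 36 channel genes, 11 were higher and 12 were lower in VML-injured than in sham-operated limbs (limma, adjusted p under 0.05, mean of the 3 injured groups), which is 30.6% and 33.3% of the members. Among all genes tested 47.5% were called higher and 7.28% lower. The median log2 fold change over the channel genes was -0.15. Summed over all 62 named genes, channel mRNA was 472 and 501 TPM in the sham limbs and between 141 and 302 TPM in the injured limbs. The injured mean was 0.446 of the sham mean as deposited. Summed over the 36 members alone, it was 0.254 of the sham mean after libraries were rescaled by trimmed means. Every injured limb lay above both sham limbs for 11 members and below both for 14, while for the other 11 the limbs overlapped. For all genes tested these shares were 48.7% above and 8.2% below.

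Of the 11 genes called higher, 7 had passed the filter through injured limbs alone, so that a higher value there was partly built into their choice. In the same way 2 of the 12 genes called lower had passed through sham alone. When libraries were rescaled by trimmed means, the median of all genes moved to 0.01, and 7 members were called higher and 18 lower. The share of higher among called members went from 47.8% to 28.0%. Among all 9321 genes tested, 2643 were then called higher and 2550 lower. Of the members called as deposited, all 12 falls and 7 of 11 rises were kept. The calls rested heavily on the sham limbs: with sham pig 025 or sham pig 026 left out, fewer members were called higher and fewer lower. Fewer of all genes were called in each direction as well.

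**Figure D1:**
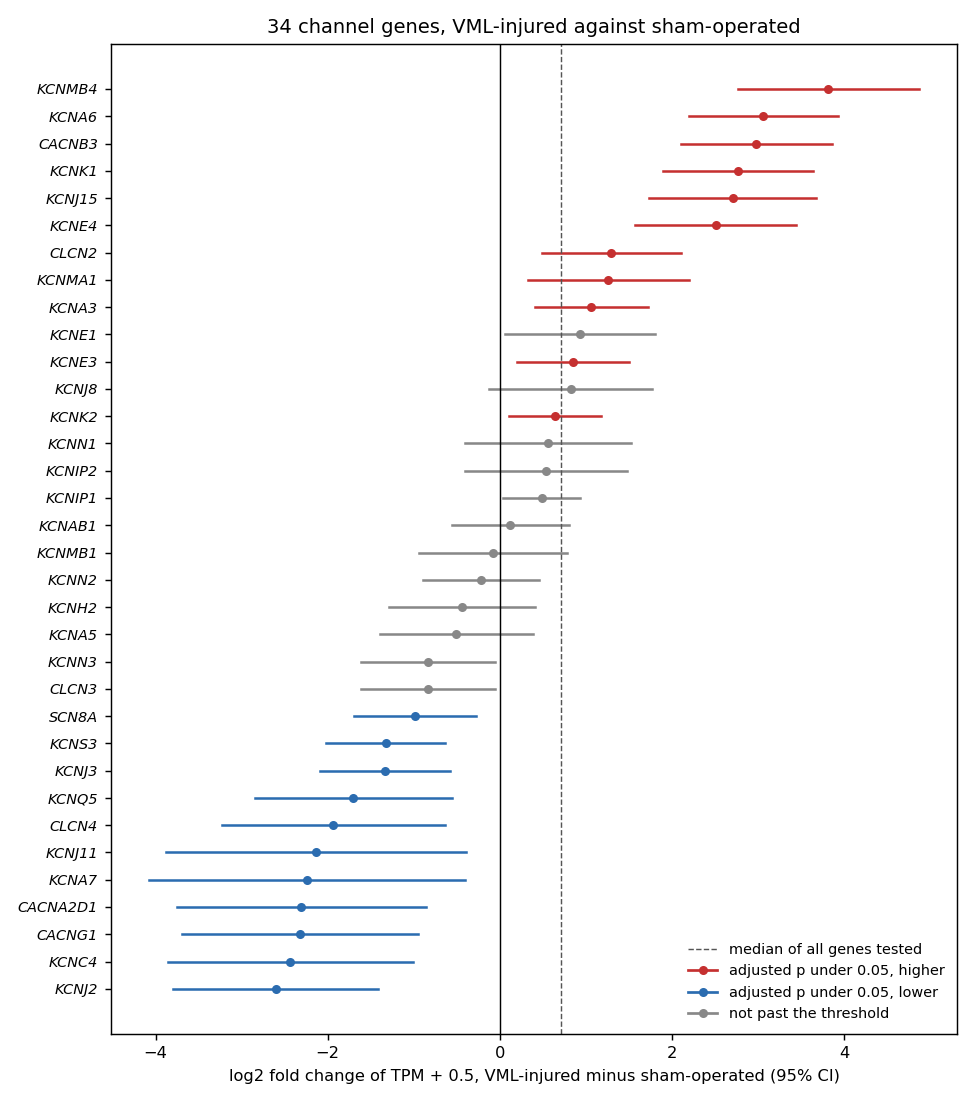
Log2 fold change of TPM + 0.5 (x axis) of 34 of the 36 channel genes in VML-injured against sham-operated limbs, with bars for the 95% confidence interval from limma; red and blue mark an adjusted p under 0.05 and the dashed line is the median of all genes tested. The 11 red genes run from KCNK2 at 0.64 to KCNMB4 at 3.82, and the 11 blue genes from SCN8A at -0.98 to KCNJ2 at -2.60.

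The steepest falls were in genes listed as channels of the muscle fiber. Of 18 genes listed as skeletal muscle fiber channels, 10 were in the table and past the filter, of which 7 fell and 1 rose. Among all genes tested 7.28% were called lower and 47.5% higher. The median log2 fold change of the 10 fiber channels was -2.19. Their summed level was 420 and 429 TPM in the sham limbs and 24.6 to 185 TPM in the injured limbs. The injured mean was 0.231 of the sham mean. In the sham limbs these few genes thus made up most of the channel mRNA in the table. CACNG1 alone made up 250 and 237 TPM of their sum there.

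CACNG1, the gamma subunit of the skeletal muscle L-type calcium channel, was the most abundant channel gene in sham muscle. It read 250 and 237 TPM in the sham limbs, 53.3 and 56.6 in the non-repaired, 20.3 and 123 in the Hya-repaired, and 13.5 to 67 with a median of 50.7 in the ECM-repaired limbs. No injured limb reached the sham level, and the Hya-repaired limb of pig 017 came closest. The log2 fold change was -2.33 (SE 0.63, limma adjusted p = 0.0088). CACNA2D1, the alpha-2-delta subunit of the same complex that brings the pore to the membrane, read 48.2 and 37.7 TPM in sham, 11.9 and 19.3 in non-repaired, 2.94 and 9.11 in Hya-repaired and 2.4 to 25.3 (median 7.29) in ECM-repaired limbs. Here too the groups did not overlap, and the log2 fold change was -2.31 (SE 0.66, limma adjusted p = 0.0118). No calcium channel pore gene was analysed here. Both calls were lost when either sham limb was left out.

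The potassium channel genes KCNJ2 and KCNJ11 were lower as well. KCNJ2, an inward rectifier that keeps the fiber near the potassium potential, read 9.03 and 9.33 TPM in the sham limbs, 1.58 and 2.19 in the non-repaired, 0.266 and 1.74 in the Hya-repaired and 0.112 to 2.07 (median 0.841) in the ECM-repaired limbs. Sham limbs were close to each other and all injured limbs were far below. This was the largest fall among the members, -2.60 on the log2 scale (SE 0.55, limma adjusted p = 0.00171), and it was called in every alternative setting run. KCNJ11, the pore of the ATP-sensitive potassium channel of muscle, read 45.4 and 57.1 TPM in sham, 10.9 and 23.7 in non-repaired, 5.1 and 19.5 in Hya-repaired and 2.28 to 23.1 (median 12.2) in ECM-repaired limbs. No injured limb reached the lower sham limb, yet the spread among injured limbs was wide and the log2 fold change of -2.13 (SE 0.80, limma adjusted p = 0.0395) was lost without either sham limb, without Hya-repaired pig 016, non-repaired pig 017 or ECM-repaired pig 022.

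Of the listed fiber potassium channels opened by voltage, which repolarise the membrane after each spike, KCNC4 and KCNA7 were lower. KCNC4 read 20.8 and 17.9 TPM in sham, 2.77 and 6.73 in non-repaired, 1.59 and 4.06 in Hya-repaired and 0.528 to 8.48 (median 3.7) in ECM-repaired limbs. KCNA7, a channel known mainly from skeletal muscle and heart, read 28.6 and 40.6 TPM in sham, 6.16 and 13.2 in non-repaired, 3.67 and 13 in Hya-repaired and 0.723 to 13.7 (median 8.13) in ECM-repaired limbs. For both genes every injured limb was below both sham limbs. The log2 fold changes were -2.44 (SE 0.66, limma adjusted p = 0.00801) for KCNC4 and -2.24 (SE 0.84, limma adjusted p = 0.0399) for KCNA7. The KCNA7 call was lost under 7 of the alternative settings and the KCNC4 call without sham pig 025. Of the KCNQ genes, which form slow non-inactivating potassium channels, KCNQ5 fell from 5.5 and 5.08 TPM in sham to between 0.0692 and 2.88 in injured limbs, by 1.70 on the log2 scale (SE 0.53, limma adjusted p = 0.0165), a call lost without either sham limb.

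**Figure D2:**
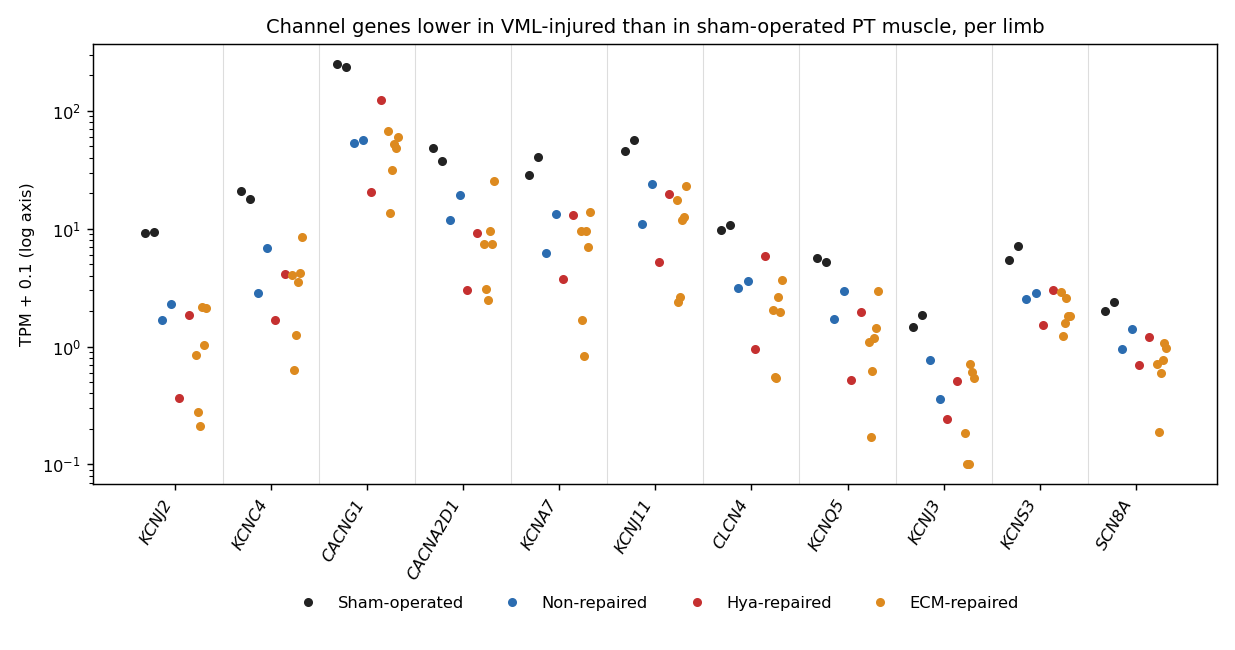
TPM + 0.1 on a log axis (y) in each limb for 11 of the 12 channel genes called lower in VML-injured limbs (x), with a point per limb coloured by group. For each gene all 10 injured limbs lie below both sham limbs, which for CACNG1 read 250 and 237 TPM.

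The other genes called lower are not held to be fiber channels alone. CLCN4, an endosomal chloride-proton exchanger, was 9.71 and 10.7 TPM in sham and 0.442 to 5.81 in injured limbs, which is -1.93 on the log2 scale (limma adjusted p = 0.0163). KCNS3, a silent subunit that modifies delayed rectifiers, was 5.29 and 6.99 TPM in sham and 1.13 to 2.89 in injured limbs (-1.32, limma adjusted p = 0.00407). KCNJ3, an inward rectifier gated by G proteins, was 1.36 and 1.74 TPM in sham and at most 0.669 in injured limbs (-1.34, limma adjusted p = 0.00645). It had passed the filter through the sham limbs alone, so a lower value in injured limbs was partly built into its choice. It was listed at 0 in the ECM-repaired limbs of pigs 014 and 018, and a listed 0 may also be a failed estimate. SCN8A, the sodium channel of the nodes of Ranvier in nerve, was the only sodium channel past the filter, with 1.9 and 2.3 TPM in sham and 0.0884 to 1.32 in injured limbs (-0.98, limma adjusted p = 0.0223). The muscle sodium channel SCN4A was not analysed here. The CLCN4 and SCN8A calls were lost without either sham limb, and the KCNS3 and KCNJ3 calls without sham pig 026.

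The injured limbs differed widely among themselves. In all 12 genes called lower, the lowest injured limb was the ECM-repaired limb of pig 014 or of pig 018, and in 8 of 12 these were the lowest pair. The same limbs, with the Hya-repaired limb of pig 016, had the lowest muscle fiber reference, with means of 7.23, 7.94 and 7.78 on the log2 scale. The Hya-repaired limb of pig 017 had the highest reference of the injured limbs, 10.47, and the largest summed fiber channel level, 185 TPM.

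Set against the muscle fiber genes of the same limb, most fiber channels overlapped between sham and injured limbs. The reference was the mean log2(TPM + 0.5) of ACTA1, CKM, ACTN2, LDB3, MYOM1, DES, TMOD4 and CASQ1, genes of the contractile apparatus and calcium store. The log2 of summed fiber channel TPM minus this reference was -2.71 and -2.82 in the sham limbs and ran from -2.96 to -2.47 in the injured limbs, so the sham limbs lay inside the injured range. CACNG1 was the largest part of the sum in the sham limbs. For single genes 8 of 10 fiber channels overlapped between sham and injured limbs on this scale. The share of all genes that overlapped on it is not given here, while 83.9% of all genes were called higher on it. For CACNG1 the sham limbs were -3.67 and -3.45 and the injured limbs -4.23 to -2.95. For KCNJ11 they were -5.90 and -5.72 against -6.33 to -5.28.

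Tested relative to the reference, the log2 fold change was -0.09 for CACNG1 (95% interval -1.99 to 1.82), -0.07 for CACNA2D1 (-1.89 to 1.76) and 0.11 for KCNJ11 (-1.73 to 1.94). It was -0.36 for KCNJ2 (-2.11 to 1.38) and -0.20 for KCNC4 (-1.98 to 1.59), and for KCNA7 the interval was -1.82 to 1.81. In limma the spread is shared over all genes: the moderated SD was 1.10 to 1.22 for the fiber channels, against their own SD within conditions of 0.317 for CACNG1 to 1.06 for KCNE3. The intervals of these 6 genes leave room for a change of more than 2-fold in either direction. On this scale 7 of 10 injured limbs were below both sham limbs for KCNJ2, and 7 of 10 were above both for KCNQ5 (0.54, -1.21 to 2.28). KCNE3 (3.09, limma adjusted p = 0.00155) and KCNN2 (2.02, limma adjusted p = 0.0263) were called higher relative to the reference. For both, all 10 injured limbs lay above both sham limbs. The median log2 fold change of all genes in this fit was 2.95, near the KCNE3 value and above the KCNN2 value. In this fit 20 of the 36 members were called higher and 0 lower at an adjusted or unadjusted p under 0.05, where among all genes 83.9% were called higher and 0.0215% lower. Without sham pig 025 fewer members were called higher, as were fewer of all genes. The largest differences on this scale were in KCNMB4 (6.06), KCNA6 (5.30) and CACNB3 (5.22).

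**Figure D3:**
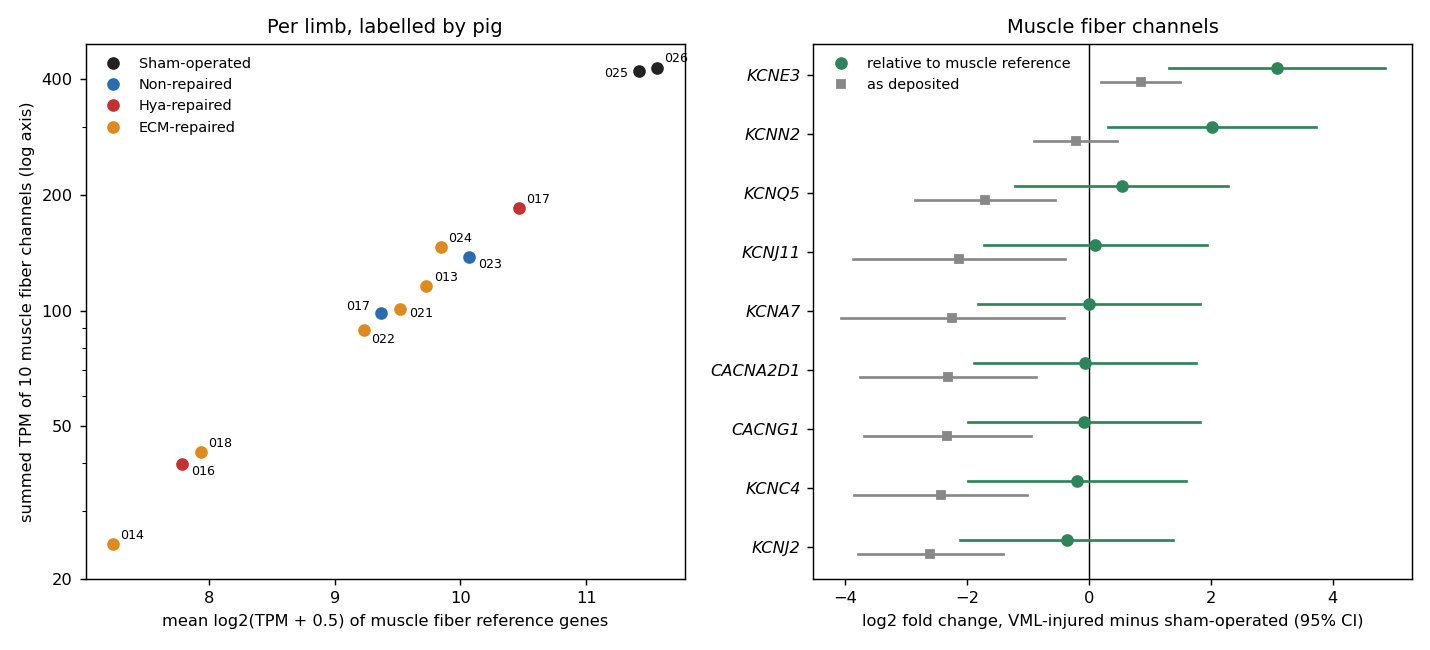
Left, summed TPM of the 10 fiber channels (log axis) against the mean log2(TPM + 0.5) of 8 muscle fiber genes, a point per limb labelled by pig. Right, log2 fold change of 9 of the fiber channels in VML-injured against sham-operated limbs as deposited (grey squares) and relative to the muscle fiber genes (green circles), with 95% limma intervals. The limbs run along a single line from pig 014 at 24.6 TPM to the sham limbs at 420 and 429 TPM, and 7 of the 9 green intervals span 0.

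The largest rises were in genes outside the fiber channel list. KCNMB4, an accessory beta subunit of the large-conductance calcium-activated potassium (BK) channel best known from the nervous system, led them. It read 0.976 and 1.39 TPM in the sham limbs, 32.1 and 17.7 in the non-repaired, 44.5 and 9.99 in the Hya-repaired and 13.2 to 35.7 (median 25.3) in the ECM-repaired limbs. Every injured limb was several times the higher sham limb, with a log2 difference of 3.82 (SE 0.49, limma adjusted p = 4.15e-05). KCNMA1, the pore that KCNMB4 modulates, was 1.22 and 1.53 TPM in sham and 2.27 to 8.31 in injured limbs, a smaller rise of 1.26 (SE 0.43, limma adjusted p = 0.0259) that was lost under 6 alternative settings, among them rescaling and leaving out either sham limb. The smooth muscle beta subunit KCNMB1 was 0.277 and 1.3 TPM in sham and 0.27 to 1.69 in injured limbs, which overlapped (log2 difference -0.08, 95% interval -0.94 to 0.78). Per length, the KCNMB4 level was thus below that of KCNMA1 in both sham limbs and above it in the injured limbs.

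KCNA6, a delayed rectifier, read 0.264 and 0.207 TPM in sham, 5.91 and 5.11 in non-repaired, 7.75 and 3.46 in Hya-repaired and 3.72 to 12.2 (median 5.74) in ECM-repaired limbs. CACNB3, a beta subunit that brings calcium channel pores to the membrane in smooth muscle, nerve and other tissues, read 0.839 and 2.09 TPM in sham, 17.1 and 14.2 in non-repaired, 25.5 and 6.78 in Hya-repaired and 10.5 to 17.4 (median 14.1) in ECM-repaired limbs. Neither gene overlapped between sham and injured limbs, and the log2 fold changes were 3.06 (SE 0.40, limma adjusted p = 4.95e-05) and 2.98 (SE 0.40, limma adjusted p = 6.52e-05). CACNB3 rose while CACNG1 and CACNA2D1 fell, so the calcium channel subunits moved in both directions.

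KCNK1, a tandem-pore leak channel, read 0.149 and 0.774 TPM in sham, 5.64 and 5.34 in non-repaired, 8.84 and 3.01 in Hya-repaired and 3.58 to 8.87 (median 6.76) in ECM-repaired limbs. KCNJ15, an inward rectifier, was 0.165 TPM in sham pig 025 and listed at 0 in sham pig 026, against 3.99 and 2.49 in non-repaired, 5.28 and 1.01 in Hya-repaired and 2.99 to 6.71 in ECM-repaired limbs. KCNE4, an auxiliary subunit that restrains several voltage-gated potassium channels, was 0.184 and 0.569 TPM in sham, 5.17 and 7.79 in non-repaired, 5.54 and 1.2 in Hya-repaired and 2.78 to 7.06 in ECM-repaired limbs. All 3 were higher in every injured limb, with log2 fold changes of 2.77, 2.70 and 2.51 (SE 0.40, 0.45 and 0.43, limma adjusted p = 0.000115, 0.000311 and 0.000422). Together with KCNMB4, KCNA6 and CACNB3 they were the 6 rises called in every setting run. Of these 6 genes, KCNA6, KCNK1, KCNJ15 and KCNE4 had passed the filter through injured limbs alone, so a higher value there was partly built into their choice. In all 6 the Hya-repaired limb of pig 017, the injured limb with the highest muscle fiber reference, had the lowest injured value.

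**Figure D4:**
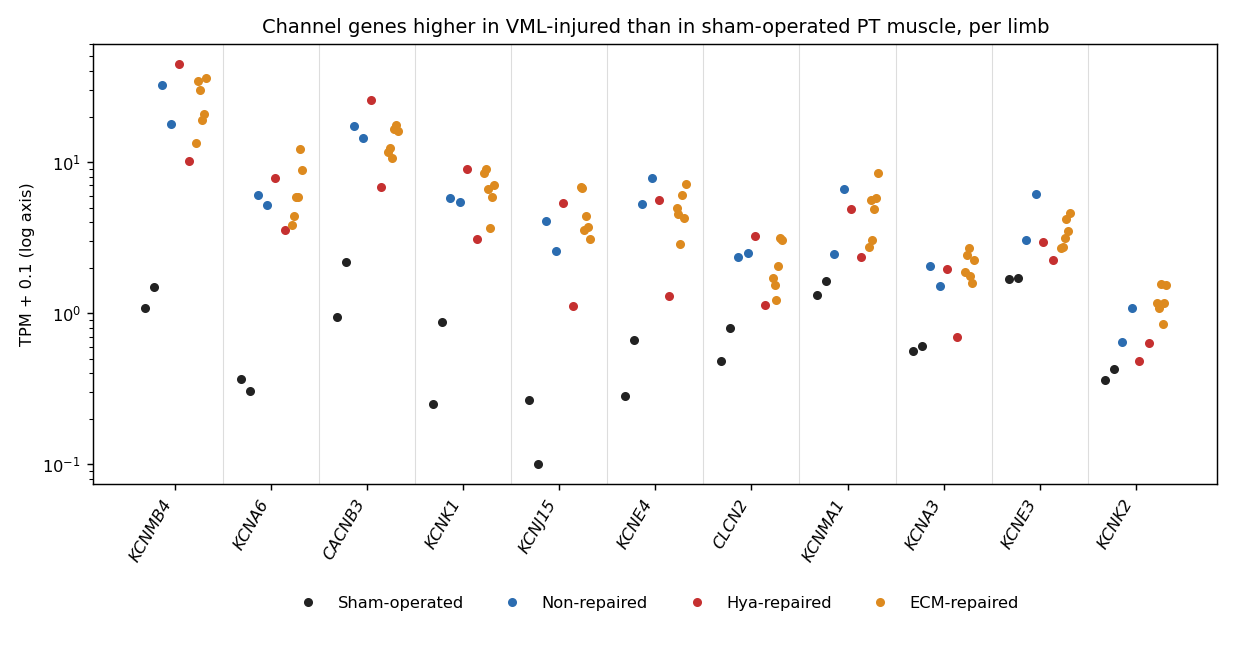
TPM + 0.1 on a log axis (y) in each limb for the 11 channel genes called higher in VML-injured limbs (x), with a point per limb coloured by group. All 10 injured limbs lie above both sham limbs for each gene, with KCNMB4 at 9.99 to 44.5 TPM in injured and 0.976 and 1.39 TPM in sham limbs.

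The other rises were smaller. CLCN2, a chloride channel of the cell surface found in many tissues, was 0.385 and 0.696 TPM in sham and 1.03 to 3.15 in injured limbs (1.29, limma adjusted p = 0.011), and the call was lost without sham pig 025. KCNE3, an auxiliary subunit listed among the fiber channels, was 1.59 and 1.61 TPM in sham and 2.15 to 6.06 in injured limbs (0.85, limma adjusted p = 0.0299). KCNK2, a tandem-pore channel opened by stretch, was 0.261 and 0.328 TPM in sham and 0.38 to 1.45 in injured limbs (0.64, limma adjusted p = 0.0417). CLCN2 and KCNK2 had passed the filter through injured limbs alone, so a higher value there was partly built into their choice. The KCNE3 and KCNK2 rises were lost under 6 and 11 alternative settings, rescaling among them, and came close to or below the median shift of all genes, 0.71.

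Channels typical of smooth muscle and pericytes were called higher in 3 of 7 genes tested. Of 10 genes on this list, 9 were in the table and 7 past the filter. KCNMA1, CACNB3 and KCNE4 were called higher and the other 4 were not called, where 47.5% of all genes were called higher. The list median was 0.82 against 0.71 for all genes, and KCNE4 had passed the filter through injured limbs alone. Summed TPM was 9.29 and 14.9 in the sham limbs and 21.9 to 48.8 in the injured limbs. KCNA5, an oxygen-sensitive delayed rectifier of arteries, was 2.19 and 3.38 TPM in sham and 0.508 to 3.11 in injured limbs (-0.51, 95% interval -1.39 to 0.38). KCNAB1, a cytoplasmic beta subunit of KCNA channels, was 1.77 and 2.04 TPM in sham and 0.99 to 3.33 in injured limbs (0.12, -0.56 to 0.80). For both genes the limbs overlapped. CACNB2 and KCNK3 stayed below the filter. Of 5 smooth muscle and pericyte markers, ACTA2 and TAGLN were higher and DES, which muscle fibers also make, was lower. CNN1 and RGS5 overlapped with sham and were not called. CNN1 was 25.2 and 40.5 TPM in sham and 15.8 to 40.7 in injured limbs, and RGS5 35.5 and 51.5 against 26.1 to 76.9. The median log2 fold change of the 5 markers was 0.17. The part of these markers in the channel values was not tested.

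Among ATP-sensitive potassium channels, the level of the vascular pore relative to the muscle pore was higher after VML. KCNJ8, the pore of the vascular form, was 2.78 and 3.9 TPM in the sham limbs, 6.18 and 10.1 in the non-repaired, 6.32 and 5.79 in the Hya-repaired and 2.42 to 10.4 (median 5.16) in the ECM-repaired limbs. On its own it overlapped with sham and was not called (0.82, limma adjusted p = 0.127). Its level relative to KCNJ11 in the same limb, as a difference of log2(TPM + 0.5), was -3.76 ± 0.0681 in sham (SD, n = 2) and -0.77 ± 0.815 in injured limbs (SD, n = 10). The difference was 2.98, all 10 injured limbs were above both sham limbs, and the two-sided exact permutation p was 0.0152, the smallest that 66 splits of the limbs allow. Relative to the muscle fiber genes, the log2 fold change was 3.06 for KCNJ8, 0.11 for KCNJ11 and 2.95 for the median of all genes. Whether other genes set over KCNJ11 separate in the same way was not tested. The KCNJ8 to KCNJ11 ratio was the only one of 3 planned that could be computed, and its p was not adjusted over the 3. With either sham limb left out, too few splits remain for this test to reach a p under 0.05. ABCC9, the sulfonylurea receptor that pairs with either pore, was 19.8 and 22.8 TPM in sham and 1.25 to 19.9 in injured limbs (-1.21, limma adjusted p = 0.143).

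Of 8 genes listed as leukocyte channels, 5 were in the table and 3 past the filter. KCNA3 and KCNJ15 were called higher, but both passed the filter through injured limbs alone, and 47.5% of all genes tested were called higher. KCNA3, the potassium channel of T lymphocytes, was 0.459 and 0.506 TPM in sham, 1.95 and 1.41 in non-repaired, 1.87 and 0.592 in Hya-repaired and 1.5 to 2.62 in ECM-repaired limbs. Its rise of 1.06 (SE 0.30, limma adjusted p = 0.0106) was not called after rescaling or without either sham limb. KCNE1, an auxiliary subunit of KCNQ channels, was 5.34 and 9.8 TPM in sham and 8.4 to 30.8 in injured limbs (0.93, limma adjusted p = 0.0653), with the lowest injured limb between the sham limbs. KCNN4, the calcium-activated channel of lymphocytes and macrophages, and KCNJ10 were below the filter. Over the same limbs 9 of 9 macrophage markers and 5 of 8 T and NK lymphocyte markers were higher, and the summed level of 9 T and NK markers was 3.70 and 7.08 TPM in sham and 16.8 to 80.8 TPM in injured limbs. Their part in the channel values was not tested.

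Of 6 channel genes listed for denervated or embryonic muscle, only 2 were analysed here. KCNN3, a small-conductance calcium-activated channel of denervated fibers, was past the filter, and SCN2A was listed at 0 in every library. KCNN3 was 1.33 and 1.64 TPM in sham and 0.206 to 1.5 in injured limbs, a log2 difference of -0.84 (95% interval -1.61 to -0.06) that did not pass the threshold (limma adjusted p = 0.0636). The ECM-repaired limbs of pigs 024 and 013 read 1.5 and 1.16 TPM and the other injured limbs at most 0.664. The related KCNN1 was 0.915 and 1.37 TPM in sham and 0.804 to 5.44 in injured limbs (0.56, -0.40 to 1.53), and KCNN2 was 0.574 and 1 TPM in sham and 0.119 to 1.06 in injured limbs (-0.22, -0.89 to 0.46). In the same limbs 3 of 4 denervation markers tested were called higher, NCAM1, RUNX1 and GADD45A, where 47.5% of all genes tested were. NCAM1 overlapped, with 1.80 and 5.66 TPM in sham and 5.50 to 20.4 TPM in injured limbs. The acetylcholine receptor subunit CHRNA1 was 8.79 and 83.8 TPM in the sham limbs and 5.70 to 185 TPM in the injured limbs.

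Of the 13 members that did not pass the threshold, 6 had a higher and 7 a lower mean in injured limbs. KCNIP1 and KCNIP2, calcium-sensing partners of fast-inactivating potassium channels, had log2 differences of 0.49 (limma adjusted p = 0.0618) and 0.54 (limma adjusted p = 0.306). KCNH2, the rapid delayed rectifier of heart, was 0.73 and 1.22 TPM in sham and 0.086 to 1.28 in injured limbs (-0.44, 95% interval -1.29 to 0.41). CLCN3, an endosomal chloride-proton exchanger like CLCN4, was 10.6 and 12.5 TPM in sham and 2.6 to 8.98 in injured limbs. Its groups did not overlap, but the difference of -0.84 did not pass (limma adjusted p = 0.0641). After rescaling by trimmed means CLCN3, KCNA5, KCNH2, KCNN2 and KCNN3 were among the genes called lower as well.

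Each injured group was also set against the same 2 sham limbs, so these comparisons share their controls. ECM-repaired limbs had 13 members higher and 14 lower, with 46.5% and 9.52% of all genes. Non-repaired limbs had 10 higher and 4 lower, with 42.9% and 1.12% of all genes, and Hya-repaired limbs had 6 higher and 8 lower, with 31.8% and 3.57%. After rescaling by trimmed means, 2697 and 2678 of all 9321 genes were called higher and lower in ECM-repaired limbs. For non-repaired limbs these were 1956 and 1866, and for Hya-repaired limbs 2093 and 1741. The member counts were then 10 and 19 for ECM-repaired, 6 and 14 for non-repaired, and 6 and 15 for Hya-repaired limbs. On the values as deposited, fewer members were called in each group without sham pig 025 or sham pig 026, as were fewer of all genes. With only the compared groups in the fit, non-repaired limbs had 13 members higher and 13 lower, and 5078 and 709 of 9275 genes tested. The non-repaired falls dropped without pig 017 or pig 023. They dropped to 2 without ECM-repaired pig 021 or 022, where 85 and 74 of all genes were called lower. The Hya-repaired falls dropped without pig 016. In each of these fits with a limb left out, fewer of all genes were called lower as well.

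Values of single genes against sham are given for each group. KCNMB4 was higher by 3.88 in ECM-repaired, 3.87 in non-repaired and 3.70 in Hya-repaired limbs (log2, SE 0.50, 0.61 and 0.61). KCNJ2 was lower, with -2.90 in ECM-repaired, -2.03 in non-repaired and -2.88 in Hya-repaired limbs (SE 0.57, 0.69 and 0.69). CACNG1 was at -2.57, -2.14 and -2.27 in the same order (SE 0.65, 0.79 and 0.79). The values lay further apart for CACNA2D1, at -2.55, -1.46 and -2.91, and for KCNE4, at 2.61, 3.00 and 1.91. KCNE1 was called higher against sham in the ECM-repaired limbs alone (1.25, limma adjusted p = 0.0214), but it did not differ between the injured groups beyond the threshold.

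The question of whether the repair material altered channel mRNA was tested between the injured groups. In limma 0 of the 36 members passed the threshold for ECM-repaired against non-repaired, Hya-repaired against non-repaired or ECM-repaired against Hya-repaired limbs, and the share of all genes called was 0 in each. At an unadjusted p under 0.05 there were 0, 1 and 2 members, and no alternative setting called a member in these comparisons. KCNIP1 was lower in Hya-repaired than in non-repaired limbs by a log2 difference of -0.64 (95% interval -1.21 to -0.08) and higher in ECM-repaired than in Hya-repaired limbs by 0.54 (0.08 to 1.00), from values of 0.202 and 0.18 TPM in the Hya-repaired limbs, 0.646 and 0.515 for non-repaired and 0.374 to 0.715 for ECM-repaired limbs. The Hya-repaired limbs were the lowest injured pair. KCNIP1 passed the filter through the non-repaired limbs alone, so its higher value there is partly built into its choice. KCNK2 was 0.75 higher in ECM-repaired than in Hya-repaired limbs (0.20 to 1.30), with 0.38 and 0.531 TPM in Hya-repaired and 0.753 to 1.45 in ECM-repaired limbs. It too passed the filter through the ECM-repaired and non-repaired limbs and not through the Hya-repaired limbs, which partly fixes this difference.

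Other members with the smallest p in these comparisons had intervals that spanned 0. For ECM-repaired against non-repaired limbs they were KCNQ5 (-0.90, -2.09 to 0.28), KCNAB1 (-0.53, -1.23 to 0.17) and SCN8A (-0.55, -1.28 to 0.18). For Hya-repaired against non-repaired limbs they were KCNE4 (-1.10, -2.28 to 0.09) and KCNE3 (-0.67, -1.49 to 0.15), and for ECM-repaired against Hya-repaired limbs KCNA3 (0.62, -0.06 to 1.30). A difference of 2-fold between materials lies within several of these intervals, and the data do not show that the materials act alike.

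Genes whose proteins work with these channels also moved in both directions. Of 34 listed partners, 22 were in the table and 20 were tested, of which 5 rose and 8 fell. Among all genes tested 47.5% were called higher and 7.28% lower. The median of the partners was -1.06 on the log2 scale. CASQ1 is on this list and also among the muscle fiber reference genes. The rises included FXYD5 (4.64) and FXYD6 (1.56), small regulators of the sodium pump, ATP1B3 (2.20), a beta subunit of that pump, and GEM (2.63), a small GTPase that restrains calcium channels. FXYD5 read 3.06 and 7.23 TPM in sham and 78.1 to 212 TPM in injured limbs. ANK1, an ankyrin that ties membrane proteins to the cytoskeleton and the calcium store, fell from 703 and 850 TPM in sham to between 34.2 and 312 TPM (-2.40, limma adjusted p = 0.0204). STAC3 and JPH2, which join the L-type channel to the calcium store, fell by 1.90 and 1.76 on the log2 scale (limma adjusted p = 0.0357 and 0.0378), and the release channel RYR1 was -2.27 and not called (limma adjusted p = 0.13).

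At the edge of the filter, the members just inside were KCNIP1, KCNMB1 and KCNN2, whose lowest limb in their best condition was 0.515, 0.522 and 0.574 TPM. Just outside lay KCND3, KCNIP4 and CLCN5, at 0.254, 0.233 and 0.172 TPM. The 20 genes that were above 0 but below the filter included subunits known from nerve and heart such as KCNA1, KCNA2, KCND2 and KCNB2.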

How the data were processed

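RNA from the PT muscle of 12 limbs was measured by RNA-seq. Per the study's methods, the authors used kallisto at default settings for pseudoalignment to the pig genome, and DESeq2 for their tests. The deposited values are TPM, made by the authors, for 11506 genes without read counts, so depth is unknown and a test for counts could not be used. The 21 rows whose gene names had been turned into dates were left out, as were 239 genes at 0 everywhere.

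A gene was tested when every library of some condition reached 0.5 TPM, which 9321 genes did. Values were transformed as log2(TPM + 0.5), a scale that understates the change of low genes, and a single model of the 12 libraries was made in limma 3.58.1 (R 4.3.3, a coefficient per condition, eBayes with trend and robust estimation). P-values were adjusted over all genes tested by Benjamini and Hochberg's method, with a threshold of 0.05. VML-injured is the mean of the 3 injured groups with equal weight. For the fit relative to muscle, the mean of 8 of 12 listed muscle fiber genes, those at 0.5 TPM or more in all libraries, was subtracted in each library. The values per limb on that scale were added after seeing the data. The KCNJ8 to KCNJ11 ratio was compared by an exact permutation test. The other planned ratios were not analysed here. The procedure was tested on simulated data before use.

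The members and gene lists were chosen with earlier results of these data known. Genes named in the text are those past the threshold against sham, the members of the lists of fiber, denervated, smooth muscle and leukocyte channels, the 3 with the smallest p in each comparison between injured groups and relative to muscle, the 3 on each side of the filter, and the 6 partners with the smallest p. A few genes that this rule takes in are counted but not reported here by name, and are not drawn. Other genes were named after their values were seen: CLCN3, KCNH2, KCNIP2, KCNN1, ABCC9, RYR1, STAC3, JPH2, the markers and the genes given as examples below the filter. Each limb was treated as a replicate, although the limbs of pig 017 share an animal. Alternatives were other pseudocounts (0.1 and 1), other filters, library rescaling, other reference genes, plain limma variance, fits of the compared groups only, and leaving out each limb or pig 017. Python 3.11.15, numpy 2.4.6, pandas 2.3.3 and matplotlib 3.10.9 were used.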

Additional observations from a re-analysis of the deposited data

Results flagged for a closer look

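Among the 6 ECM-repaired limbs, 2 channel genes had a limb that stood far from the others by Dixon's criterion for 6 values (critical value 0.625). In both it was the limb of pig 024, with 25.3 TPM of CACNA2D1 and 1.69 TPM of KCNMB1. With 36 genes examined in this group, chance alone flags about 1 in 20. The other 5 limbs read at most 9.4 TPM of CACNA2D1 and at most 0.641 TPM of KCNMB1. The criterion was applied to the values as deposited. The trimmed-mean scaling factor of the limb of pig 024 was 0.6251, the lowest of all libraries. In the other ECM-repaired limbs it was 0.871 to 1.098. Whether the flags remain after rescaling was not tested.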

How the results depend on the processing

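The counts of members called depended on scaling and on single limbs. Rescaling by trimmed means called 2643 of all 9321 genes higher against sham for VML-injured and 1956 for non-repaired limbs. It called 1866 lower for non-repaired and 1741 for Hya-repaired limbs. Members higher after trimmed means and after the median of ratios were 7 and 7 for VML-injured and 6 and 6 for non-repaired limbs. Members lower were 14 and 14 for non-repaired and 15 and 15 for Hya-repaired limbs. The non-repaired falls were 1 with a pseudocount of 0.1 and 13 when only the compared groups were fitted, where 81 and 709 of all genes were called lower. Without both limbs of pig 017 the falls dropped among members and among all genes. With no filter, 39 of 56 members tested were higher relative to muscle fiber genes, as were 9673 of all 11246 genes tested. The summed level in injured over sham limbs was 0.446 for the 62 named genes as deposited. After rescaling by trimmed means it was 0.254 for the 36 members. Some small log2 differences changed sign: KCNAB1 was -0.54 and -0.55 after rescaling and -0.077 without pig 017, KCNIP2 -0.050 and -0.061 and KCNN1 -0.027 and -0.039 after rescaling, and KCNMB1 0.091 without pig 017. Relative to muscle fiber genes, CACNA2D1 was 0.012 with a pseudocount of 1 and 0.13 without pig 017, KCNC4 was 0.14 without pig 017, and KCNA7 was 0.10 with a pseudocount of 1, 0.22 without pig 017 and 0.021 with other reference genes. The cause was not tested.

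With each limb left out in turn, VML-injured limbs had 6 to 12 members higher and 3 to 14 lower, ECM-repaired 7 to 13 and 6 to 16, and non-repaired 6 to 11 and 0 to 6, while Hya-repaired limbs had 0 to 10 lower and the fit relative to muscle had 12 to 24 higher. The log2 differences ran from -0.056 to 0.30 for KCNAB1, -0.68 to 0.53 for KCNMB1 and -0.46 to 0.024 for KCNN2, and relative to muscle from -0.20 to 0.026 for CACNG1, -0.32 to 0.18 for CACNA2D1, -0.036 to 0.25 for KCNJ11, -0.18 to 0.17 for KCNA7 and -0.45 to 0.064 for KCNC4. The KCNJ8 to KCNJ11 difference was 2.86 to 3.14. A group left with 1 limb was assumed to vary like the others. No paired analysis was possible because replicate numbers follow the order of the samples and mark no shared animal, and only pig 017 gave limbs to 2 groups.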

Other observations

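The table also holds genes that carry a locus number in place of a symbol, of which 2 have a potassium channel symbol in the reference. LOC397326, given as KCNQ1, the slow delayed rectifier of heart and epithelia, was 0.0991 and 0.55 TPM in the sham limbs and 1.18 to 2.32 TPM in the injured limbs. All 10 injured limbs were above both sham limbs, and the gene was called higher in VML-injured limbs (log2 fold change 1.36, SE 0.30, limma adjusted p = 0.00203) and in each injured group, by 1.41 in ECM-repaired, 1.44 in non-repaired and 1.24 in Hya-repaired limbs. It passed the filter through injured limbs alone, so that a higher value there is partly built in. LOC100514966, given as KCNAB2, a beta subunit of potassium channels, stayed below the filter, with 0.133 and 0.226 TPM in sham and 0.233 to 0.722 TPM in injured limbs. The auxiliary subunits KCNE1, KCNE3 and KCNE4, which can pair with KCNQ1, were 0.93, 0.85 and 2.51 higher on the log2 scale, of which KCNE1 did not pass the threshold.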
